A study of Mus musculus with 11 samples.

Results

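Tat, Hpd, Hgd, Gstz1 and Fah encode the consecutive enzymes that break down tyrosine, the product of phenylalanine hydroxylation, in the liver. They were taken by symbol from a table of 20893 genes measured by RNA-seq in mouse liver, and all 5 were found. Each stood far above the filter on low values (at least 0.5 eRPKM in at least 3 livers), which 14244 genes passed. An eRPKM is a read count over the exons, divided by exon length and by the total of the library.

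The 11 libraries came from whole liver of C57BL/6 mice that carried the ROSA26-rtTA-IRES-EGFP allele and were fed doxycycline. The 4 control livers, labelled WT, had received doxycycline for 7 days. The other livers carried the tetYAP transgene as well, a doxycycline-dependent, constitutively active YAP mutant, and were taken after 3 days (4 livers) or 7 days (3 livers) of doxycycline. Per the study's methods the rtTA allele is switched on by an albumin-driven Cre, so transgene expression is limited to cells in which that Cre has acted, mainly hepatocytes. The labels do not say whether the controls carried Cre, and they give no age or sex. They list the libraries as separate samples without naming animals, so p-values measure the spread between these samples.

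Tyrosine breakdown is a pathway of hepatocytes and, for its later steps, also of kidney. Tat removes the amino group of tyrosine, Hpd turns the resulting hydroxyphenylpyruvate into homogentisate, Hgd opens the aromatic ring of homogentisate, Gstz1 isomerises maleylacetoacetate, and Fah splits fumarylacetoacetate into fumarate and acetoacetate. Loss of Hgd causes alkaptonuria and loss of Fah causes hereditary tyrosinaemia, in which toxic intermediates damage liver and kidney. Tat is a classic gene induced by glucocorticoids.

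Control libraries held 1289038 to 5670838 reads, 3-day libraries 2746582 to 3794700 and 7-day libraries 5473567 to 6130510. Control liver 4 was the shallowest, and control liver 2 was the only control within the depth range of the 7-day livers. Every 7-day library was deeper than every 3-day library, so between these groups depth and time cannot be told apart. No gene longer than 500 bases exceeded 1549 reads per kb in any library. Alb, the albumin gene, spanned 1183 to 1518 reads per kb over the 11 livers, a range of 1.28-fold, although library totals spanned 4.76-fold. Its eRPKM spanned 3.92-fold. The enzymes lay at 13.7% to 75.4% of the highest reads per kb of their own library. How duplicate reads were treated is not given in the sources used here, and its part in the results was not tested. By Xist and Ddx3y, 2 of 4 controls, 2 of 4 livers at 3 days and 3 of 3 at 7 days were female. The known YAP targets Cyr61 and Ctgf averaged 9.43 ± 3.63 and 8.69 ± 3.92 eRPKM in controls (SD, n = 4) and 91.0 ± 0.409 and 96.7 ± 8.28 at 7 days (SD, n = 3). The Yap1 row of the table was at 18.2 ± 3.10 and 18.4 ± 0.862 eRPKM, and whether the table counts reads of the transgene is not given.

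**Figure D1:**
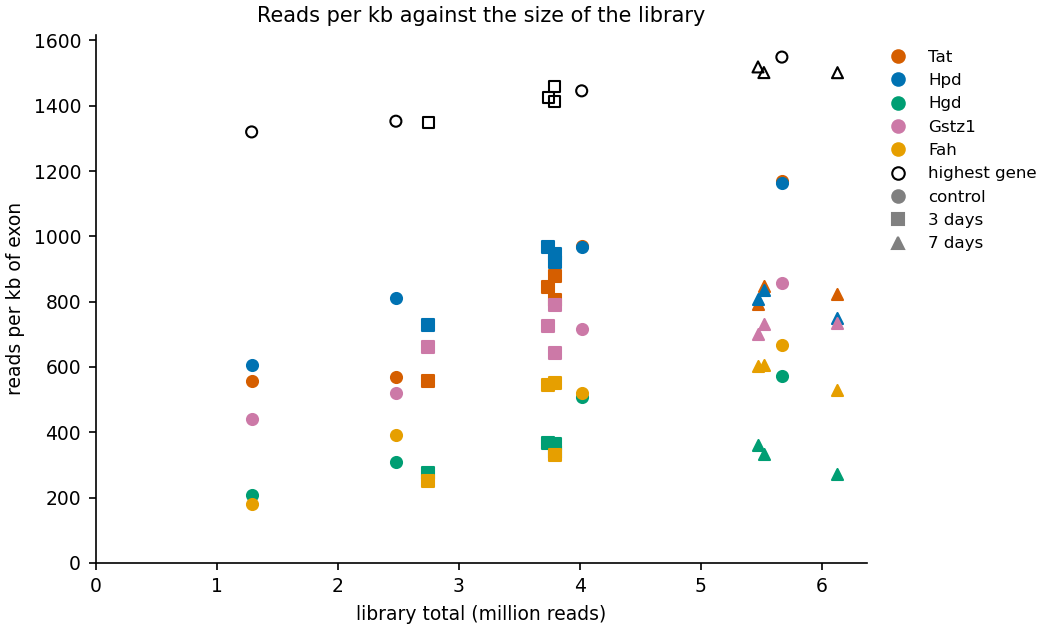
Reads per kb of exon (vertical axis) against the library total (reads, in units of 1e+06) (horizontal axis) for the 5 enzymes and for the highest gene of each library; circles are controls, squares 3 days and triangles 7 days. The highest gene stayed between 1320 and 1549 reads per kb over a 4.76-fold range of depth, and at like depth control liver 2 lay above the 7-day livers for every enzyme.

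The genes lie on 5 chromosomes of NCBIM37 (mm9), given here with the GENCODE M1 annotation. Tat is at chr8:112514337-112523703 on the plus strand, Hpd at chr5:123621816-123632734 on the minus strand, Hgd at chr16:37580239-37632106 on the plus strand, Gstz1 at chr12:88488668-88505673 on the plus strand and Fah at chr7:91733669-91755232 on the minus strand. All are protein coding, and the values count reads over their exons. The exon lengths behind the values differ from this annotation, with 1363 against 2126 bases for Hpd, 1584 against 2103 for Fah and 2097 against 1656 for Gstz1. They are closer for Tat (2377 against 2405) and Hgd (2594 against 2615). Comparisons of eRPKM between the enzymes depend on these lengths. Exons of Gstz1 overlap those of Pomt2, and the alignment used no strand, so reads of these genes cannot be told apart where they overlap.

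The 250 bases before RefSeq's start of Hgd and of Fah are shown because these genes had the largest and the smallest difference at 7 days. The sequences are RefSeq's (GRCm38.p6), and each matched NCBIM37 once, at chr16:37579989-37580238 on the plus strand for Hgd and at chr7:91754453-91754702 on the minus strand for Fah. The Fah block lies inside the GENCODE span given above, because another annotated transcript of Fah starts further upstream. Capitals mark the letters of a searched motif.
Hgd: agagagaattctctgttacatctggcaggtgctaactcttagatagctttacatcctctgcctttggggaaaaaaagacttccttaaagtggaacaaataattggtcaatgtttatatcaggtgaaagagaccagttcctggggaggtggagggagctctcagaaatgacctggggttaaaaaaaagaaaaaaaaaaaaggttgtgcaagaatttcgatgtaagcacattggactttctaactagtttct
Fah: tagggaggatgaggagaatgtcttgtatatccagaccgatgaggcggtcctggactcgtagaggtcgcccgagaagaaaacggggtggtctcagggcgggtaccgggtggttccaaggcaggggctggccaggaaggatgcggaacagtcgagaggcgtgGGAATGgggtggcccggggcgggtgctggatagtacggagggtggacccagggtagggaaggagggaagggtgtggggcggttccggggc
Both strands were searched for 5 motifs, TEAD (GGAATG), HNF4 (CAAAGTC), C/EBP (TTGCGCA), FOXA (TGTTTAC) and the glucocorticoid receptor (TGTTCT). Over the promoters of all 5 genes the search found 1 match, the TEAD letters at positions -90 to -85 relative to RefSeq's start of Fah. Of 32536 mouse promoters of the same length, 12.6% hold the TEAD letters, 3.9% those of HNF4, 1.7% C/EBP, 3.2% FOXA and 16.0% the glucocorticoid receptor. A match is only a run of letters, and these data do not show whether a factor binds there.

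In control livers the enzymes ranked, by mean eRPKM, Hpd (311 ± 118), Tat (277 ± 104), Gstz1 (220 ± 84.8), Fah (136 ± 17.3) and Hgd (129 ± 24.9; SD, n = 4). Hpd exceeded Tat in 2 of 4 controls and Fah exceeded Hgd in 3 of 4, so neither pair was ordered beyond the spread between livers. Tat exceeded Gstz1, and Gstz1 exceeded Fah, in 4 of 4. Over all 11 livers Gstz1 was above Fah in 11 of 11, Tat above Gstz1 in 10, Fah above Hgd in 8 and Hpd above Tat in 7.

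After 7 days of YAP induction all 5 enzymes were lower in every liver than in every control, a pattern that 13.3% of the tested genes showed. The mean eRPKM was 44.2% of the control mean for Hgd, 45.2% for Hpd, 52.1% for Tat, 57.5% for Gstz1 and 74.9% for Fah. Hgd, Hpd and Tat passed the call, for which limma's adjusted p had to be under 0.01 and the log2 change beyond 0.5 in size, and the others did not. By the same rule 23.8% of the 14244 tested genes were called, 5.77% fell and 18.0% rose, and the median log2 change over all tested genes was 0.26 against -0.88 for the enzymes. Of the calls 24.3% were falls, against 39.1% with median-ratio size factors (median 0.03) and 48.9% after quantile normalization (median -0.06). With size factors 2 of the 5 enzymes were called, Hgd and Hpd, beside 22.5% of all tested genes, with 1254 of 14244 falling. After quantile normalization 1 was called, Hgd, beside 25.6% of all tested genes, with 1786 of 14244 falling. In whole liver, fewer cells of a type and less RNA per cell cannot be told apart. After 3 days 0 of the 5 were called, beside 0.0421% of all genes. At that time 1718 genes had an unadjusted p under 0.05, among them Hgd.

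**Figure D2:**
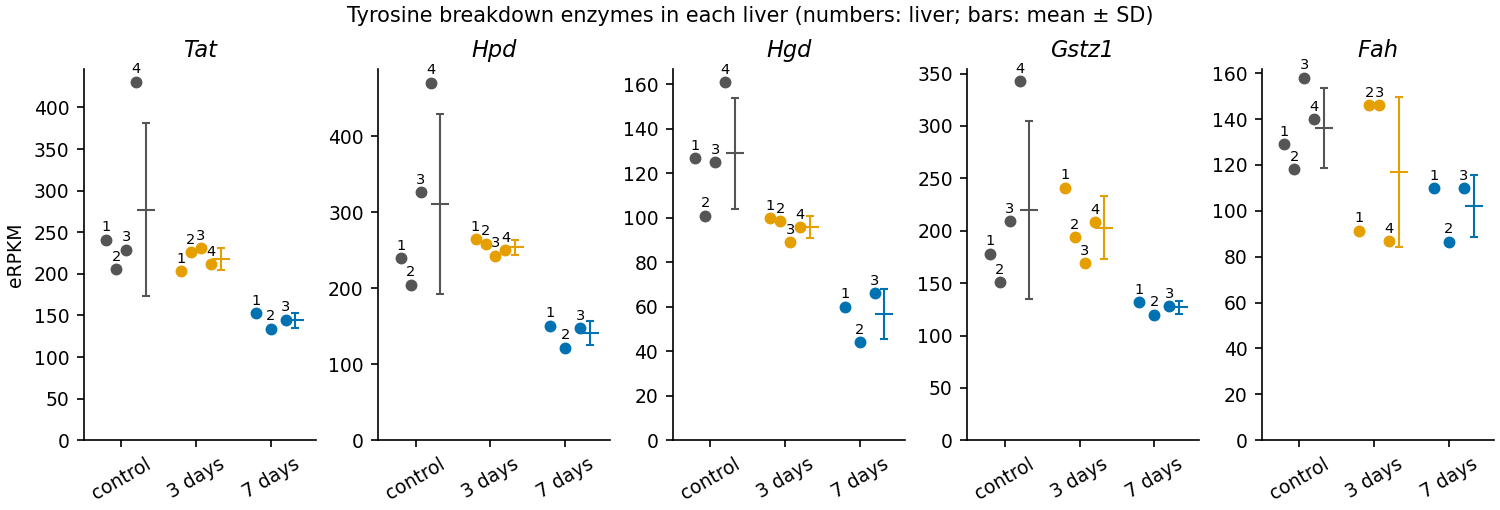
eRPKM of each enzyme (vertical axes, each from 0) in every liver, grouped as control, 3 days and 7 days; digits are liver numbers and bars the mean ± SD of 4, 4 and 3 livers. For each enzyme the 7-day livers lie below all controls, control liver 4 is the highest control for Tat, Hpd, Hgd and Gstz1, and Fah splits into pairs at 3 days.

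Tat, the aminotransferase of the first step, was at 241, 206, 229 and 431 eRPKM in control livers 1 to 4. The 3-day livers had 203, 226, 231 and 212 eRPKM, and the 7-day livers 153, 134 and 145. Control liver 4 stood apart above the other controls, the 3-day livers lay within the control range apart from liver 1, which was just under it, and the 7-day livers lay below both groups. The log2 change at 7 days was -0.88 (SE 0.22, 95% interval -1.35 to -0.40, adjusted p = 0.00733), the exact permutation test gave p = 0.0286, which is the smallest it can give, and the call was lost in 17 of 28 alternatives. At 3 days the change was -0.28 (adjusted p = 0.607), and between 3 and 7 days it was -0.60 (interval -1.07 to -0.12, adjusted p = 0.050). Without control liver 4 the 7-day change was -0.64 (adjusted p = 0.00207) and the step from 3 to 7 days was called (adjusted p = 0.00212). The call at 7 days was lost without control liver 1 (-0.92, adjusted p = 0.0128) or 3 (-0.95, adjusted p = 0.0103), without 3-day liver 2 or 4 (-0.88, adjusted p = 0.0113 and 0.0109), and without any of the 7-day livers (-0.92 to -0.83, adjusted p = 0.0211 to 0.0332).

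In reads, Tat had 2777 in control liver 2 and 1883 to 2014 in the 7-day livers, whose depth was similar, which put the 7-day eRPKM at 65.3% to 74.5% of that control. With log2 depth as a covariate the change was -0.47 (adjusted p = 0.0627), and after quantile normalization, which uses only the order of genes within a library, -0.27 (adjusted p = 0.141). Among the tested genes Tat ranked 40 to 136 in controls and 120 to 165 at 7 days, so the ranks overlapped.

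Hpd, which makes homogentisate, was at 240, 205, 327 and 471 eRPKM in control livers 1 to 4. It was at 265, 259, 243 and 250 in the 3-day livers and at 151, 122 and 148 in the 7-day livers. The 3-day values sat inside the control range and close together (SD 9.73), and the 7-day values were below both. The log2 change was -1.07 at 7 days (SE 0.24, 95% interval -1.59 to -0.56, adjusted p = 0.0035, exact permutation p = 0.0571). It was -0.22 at 3 days (adjusted p = 0.728) and -0.86 between 3 and 7 days (adjusted p = 0.0146).

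At like depth Hpd had 1586 reads in control liver 2 and 1022 to 1140 in the 7-day livers, or 59.6% to 73.8% of that control in eRPKM. Its rank was 41 to 66 in controls and 130 to 195 at 7 days, with no overlap. The 7-day change was -0.54 with depth as a covariate (adjusted p = 0.00431) and -0.47 after quantile normalization (adjusted p = 0.00133), the latter under the fold limit of the call. The call was also lost without control liver 3 (-1.03, adjusted p = 0.011), without any of the 7-day livers (-1.13 to -0.98, adjusted p = 0.0112 to 0.0214) and among female livers (-0.89, adjusted p = 0.0178). The step from 3 to 7 days became a call without control liver 2 (adjusted p = 0.00768) or 4 (adjusted p = 0.00176).

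Hgd, the ring-opening dioxygenase, showed the largest difference of the 5. It was at 127, 101, 125 and 161 eRPKM in control livers 1 to 4, at 100, 98.5, 89.0 and 95.7 in the 3-day livers and at 60.1, 44.1 and 66.1 in the 7-day livers. The 3 groups did not overlap, with 3-day liver 1 just under control liver 2. The log2 change was -1.17 at 7 days (SE 0.18, 95% interval -1.56 to -0.78, adjusted p = 0.00029, exact permutation p = 0.0286). This call was kept in 28 of 28 alternatives, whose changes ran from -1.44 to -0.89. The alternative with a looser threshold used the same fit and could not lose it.

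Between 3 and 7 days Hgd fell by 0.77 on the log2 scale (SE 0.18, 95% interval -1.16 to -0.38, adjusted p = 0.00596), and 19.3% of all tested genes were called in that comparison, with 5.31% of all tested genes falling. Depth separated the 3-day and 7-day libraries completely, and its part in this change was not tested. The call was lost in 10 of 28 alternatives with adjusted p of 0.0119 to 0.0368, among them the fits without 3-day liver 1, 2 or 4 (-0.75, -0.76 and -0.77) and without 7-day liver 1 or 2 (-0.82 and -0.60). At 3 days the change against control was -0.40 (95% interval -0.76 to -0.04, unadjusted p = 0.0312, exact permutation p = 0.0286, adjusted p = 0.357), and the 3-day livers lay below all controls, as 2.25% of the tested genes did. Genes with all 3-day livers above all controls made up 3.38%. In rank among the tested genes Hgd spanned 386 to 562 in the control group, 709 to 848 in the 3-day group and 1035 to 1761 in the 7-day group. Control liver 2 had 1485 reads and the 7-day livers 702 to 938, or 43.7% to 65.4% of that control in eRPKM.

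Gstz1, the isomerase, was at 178, 151, 209 and 343 eRPKM in control livers 1 to 4, at 241, 194, 169 and 208 in the 3-day livers and at 132, 120 and 128 in the 7-day livers. The 3-day livers lay within the control range and the 7-day livers below both groups. The 7-day change of -0.73 did not pass the call (SE 0.24, 95% interval -1.24 to -0.21, adjusted p = 0.0287, exact permutation p = 0.0571). Without control liver 2 it did (-0.88, adjusted p = 0.00996), and without control liver 4 it was -0.49 (adjusted p = 0.0353). The change was -0.06 at 3 days (adjusted p = 0.942) and -0.67 between 3 and 7 days (adjusted p = 0.0436), which was called without control liver 4 (adjusted p = 0.00539). At like depth the 7-day livers reached 79.1% to 87.3% of control liver 2 in eRPKM, with 1470 to 1540 reads against 1800. With depth as a covariate the 7-day change was -0.19 (adjusted p = 0.27).

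Fah, the last enzyme, was at 129, 118, 158 and 140 eRPKM in control livers 1 to 4 and at 110, 86.5 and 110 in the 7-day livers. The 7-day livers lay below all controls, but the change of -0.42 was not called (SE 0.21, 95% interval -0.87 to 0.04, adjusted p = 0.137, exact permutation p = 0.0571). It was 0.02 after quantile normalization, where its direction turned, and its ranks overlapped, at 336 to 545 in controls and 341 to 490 at 7 days. The 3-day livers formed pairs, with 91.3 and 86.8 eRPKM in livers 1 and 4 and 146 in both livers 2 and 3. Its changes of -0.25 at 3 days (adjusted p = 0.634) and -0.17 between 3 and 7 days (adjusted p = 0.559) were not called. Livers 1 and 4 carry the suffix MF in their sample descriptions, as does 7-day liver 2, which was the lowest of its group at 86.5. The suffix is not explained in the sources used here. As a covariate it gave Fah a difference of -0.56 (SE 0.14, adjusted p = 0.162) and the other enzymes -0.16 to 0.14.

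**Figure D3:**
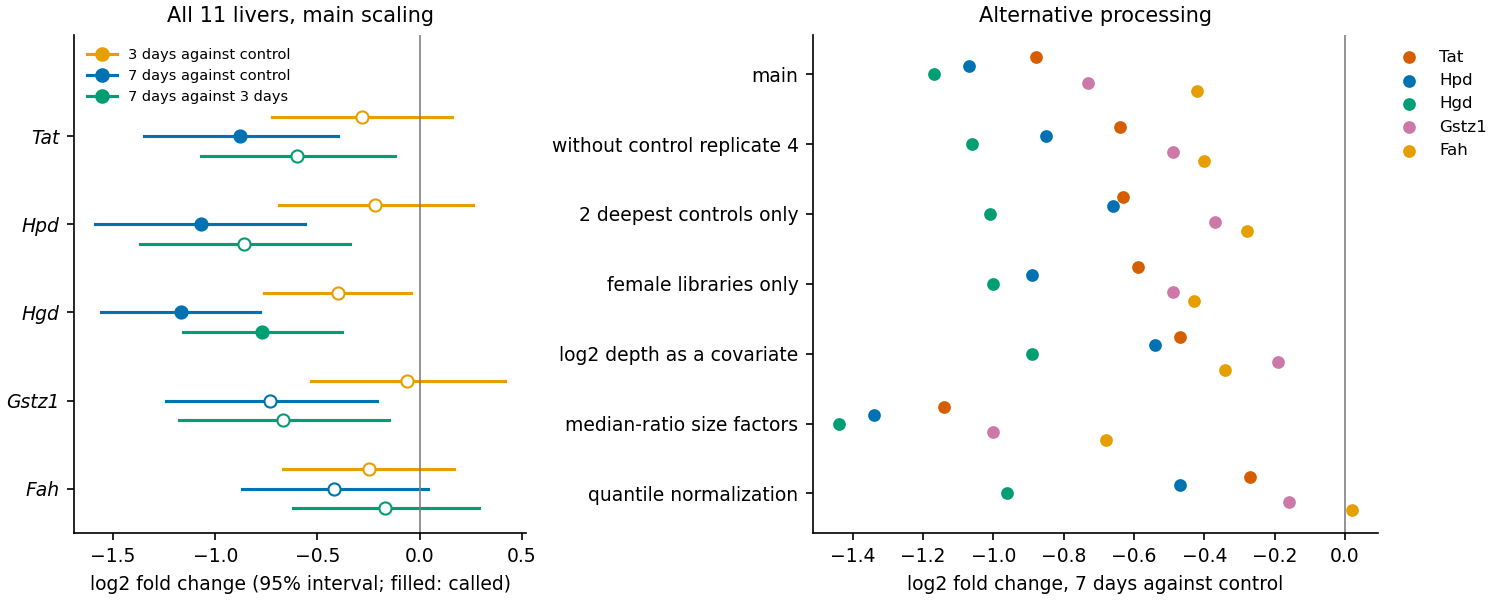
Left, log2 fold change of each enzyme (horizontal axis) with its 95% interval in the 3 comparisons, filled where called. Right, the change at 7 days against control under 7 ways of processing, each point 1 enzyme, where Hgd stays at -0.89 or lower and Fah reaches 0.02 after quantile normalization.

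Consecutive enzymes were then compared within each liver, which removes the division by the library total. It does not remove a dependence on depth that differs between genes, and this was not tested. The log2 ratio of Tat to Hpd was -0.16 ± 0.25 in controls (SD, n = 4) and 0.04 ± 0.09 at 7 days (SD, n = 3). Hpd to Hgd was 1.22 ± 0.29 and 1.31 ± 0.15, Hgd to Gstz1 -0.72 ± 0.26 and -1.17 ± 0.24, and Gstz1 to Fah 0.63 ± 0.44 and 0.32 ± 0.13. Values of the 2 groups overlapped in every ratio. For Hgd to Gstz1 the overlap rested on control liver 4, the shallowest library, at -1.08. Control livers 1 to 3 were at -0.49, -0.58 and -0.74, and the 7-day livers at -1.13, -1.43 and -0.95. The largest difference was that of Hgd to Gstz1, at -0.45 (exact permutation p = 0.0857, adjusted over the 4 ratios p = 0.343). The others were 0.20, 0.10 and -0.31, with adjusted p of 0.457 to 0.6 by the same exact permutation tests. With 4 against 3 livers a single ratio cannot go below an adjusted p of 0.114, so these tests could not pass for 1 ratio alone. Gstz1 to Fah was 1.29 in control liver 4 and 0.36 to 0.46 in the other controls, and 1.4 and 1.26 in 3-day livers 1 and 4 against 0.41 and 0.22 in livers 2 and 3.

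**Figure D4:**
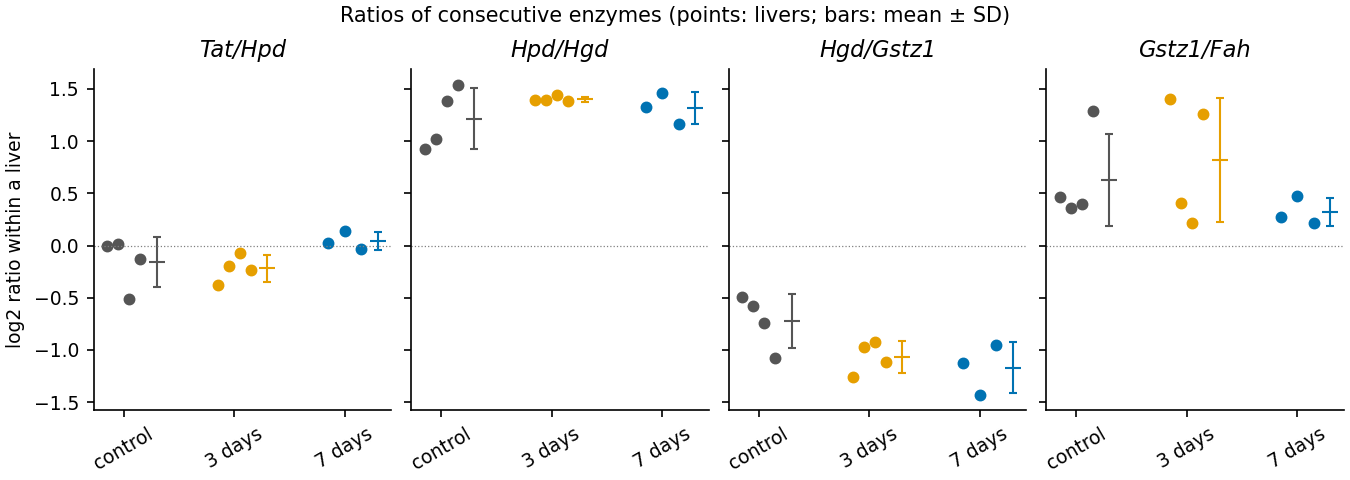
Log2 ratio of each enzyme to the next within a liver (vertical axis) in control, 3-day and 7-day livers; points are livers and bars the mean ± SD. The 7-day livers overlap the controls in all 4 ratios, and Gstz1 to Fah is high in control liver 4 and in 2 of the 3-day livers.

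Whole liver holds several cell types. Of 8 hepatocyte markers all were lower at 7 days and 1, Ttr, fell (log2 change -1.40, adjusted p = 0.0011). Their median change was -0.85, beside -0.88 for the enzymes, and their summed level was 1820 to 5700 eRPKM in controls and 1580 to 1770 at 7 days. The markers Alb, Apob and Apoa1 spanned only 1.28-, 1.38- and 1.39-fold in reads per kb, although library totals spanned 4.76-fold. Their eRPKM spanned 3.49- to 3.92-fold, and the part of depth in the marker changes was not tested. Of 5 macrophage markers 4 rose, and their sum went from 123 to 247 eRPKM in controls to 548 to 573 at 7 days. Of 6 endothelial markers 2 rose, of 6 tested cholangiocyte markers 1 rose, and of 6 stellate and 6 lymphocyte markers 0 were called, where 18.0% of all tested genes rose and 5.77% fell. No list had a marker at 0 in all livers of a group. The part of these changes in the levels of the enzymes was not tested.

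The genes around the pathway were taken from 6 lists with 57 genes in the table, of which 56 were tested. At 7 days 15 fell and 4 rose, beside 5.77% and 18.0% of all tested genes, with a median log2 change of -0.33 beside 0.26 for all genes. The lists were chosen with earlier results of these data known, so their shares and those of all genes are not an independent comparison. This holds for each list below. Of these 19 calls 9 held in 28 of 28 alternatives. At 3 days 0 were called. From 3 to 7 days 13 fell and 3 rose, beside 5.31% and 14.0% of all tested genes. The 2 comparisons with control share the control livers.

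Of 7 tested genes for tetrahydrobiopterin, the cofactor of phenylalanine hydroxylation, 3 fell at 7 days and 0 rose. Over all tested genes 5.77% fell and 18.0% rose. Qdpr, which recycles the oxidised cofactor, was at 150, 111, 137 and 179 eRPKM in control livers 1 to 4 and at 46.8, 39.9 and 45.7 in the 7-day livers, with 119 to 138 at 3 days. It fell by 1.68 on the log2 scale at 7 days (SE 0.16, adjusted p = 1.36e-05). Gch1, the first enzyme of cofactor synthesis, was at 94.7, 96.4, 108 and 92.1 eRPKM in controls, at 87.5 to 120 at 3 days and at 31.3, 26.4 and 35.4 at 7 days. It fell by 1.65 (SE 0.15, adjusted p = 8.94e-06). For both genes the 7-day livers lay below all others, and both calls held in all 28 alternatives, also between 3 and 7 days (-1.54 for Qdpr and -1.70 for Gch1). Pcbd1, which dehydrates the used cofactor, fell by 0.69 (adjusted p = 0.00673), a call that held in 10 of 28 alternatives and was lost without control liver 1 or 3, 3-day liver 2 or 4 or any 7-day liver. Pcbd2, Pts, Spr and the inhibitory partner Gchfr were not called, with changes of -0.42 to 0.25.

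Of 11 tested other enzymes that use tyrosine or its products 3 fell and 0 rose, beside 5.77% and 18.0% of all tested genes. Maob, which oxidises amines, had a mean of 93.3 ± 18.1 eRPKM in controls (SD, n = 4) and 47.5 ± 3.07 at 7 days (SD, n = 3), a change of -0.95 (adjusted p = 0.000743). Ddt, a relative of the tautomerase Mif, fell by 0.87 (adjusted p = 0.00253), a call that held in 23 of 28 alternatives. It was lost without 7-day liver 2, after quantile normalization (-0.39), among female livers, with depth as a covariate (-0.58) and with the 2 deepest controls alone. Dct, an enzyme of melanin synthesis, was at 3.41, 15.3, 9.74 and 6.87 eRPKM in controls and 6.14 to 17.1 at 3 days, and was at 0.0729, 0.394 and 0 at 7 days. These 7-day values rest on 1, 6 and 0 reads, against 22 to 215 in controls, and the change on the log2(eRPKM + 0.5) scale was -3.70 (SE 0.49, adjusted p = 0.0001). Got1 and Got2, aminotransferases of broad use, were not called (-0.67 and -0.21), and Got2 turned to 0.27 after quantile normalization.

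Of 10 relatives of the enzymes 3 fell and 0 rose, beside 5.77% and 18.0% of all tested genes. Agxt and Agxt2, aminotransferases of glyoxylate, went to 48.0% and 45.0% of their control means at 7 days (log2 change -1.05 and -1.13, adjusted p = 0.000392 and 0.000319). Fahd1, a relative of Fah, fell by 0.70 (adjusted p = 0.00583), a call that held in 19 of 28 alternatives and not without control liver 1, 2 or 3 or 7-day liver 1 or 2. Fahd2a, of the same family, was not called (0.32, adjusted p = 0.205). The glutathione transferases Gsta3, Gstm1 and Gstp1 had changes of -0.79, -0.42 and -0.55 and were not called. Gstm1 turned to 0.31 after quantile normalization and 0.05 with depth as a covariate, and Gstp1 to 0.28 with depth. Gsta3 kept its direction, at -0.11 and -0.21 in these settings.

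Of 11 genes around fumarate and acetoacetate, the products of Fah, 5 fell and 1 rose at 7 days. Among all tested genes 5.77% fell and 18.0% rose. The list also holds neighbouring steps, the Sdh subunits of the complex that makes fumarate from succinate and Mdh1 and Mdh2, which act on malate. Bdh1, which turns acetoacetate into the ketone body hydroxybutyrate, was at 51.2, 68.8, 84.7 and 54.6 eRPKM in controls, at 39.4 to 58.8 at 3 days and at 10.1, 13.8 and 9.31 at 7 days. It went to 17.1% of the control mean, with a log2 change of -2.49 (SE 0.21, adjusted p = 4.98e-06). Oxct1, which activates acetoacetate for use as fuel and is known to be low in hepatocytes, was at 6.08, 4.36, 4.51 and 2.67 eRPKM in controls and rose to 15.7 ± 3.73 at 7 days (SD, n = 3; log2 change 1.74, SE 0.32, adjusted p = 0.00115). Its 7-day livers lay above all controls, as did those of 36.7% of the tested genes. The call of Oxct1 was lost with depth as a covariate (1.41) and with the 2 deepest controls alone. Fh1, the fumarase, fell by 0.91 (adjusted p = 0.00177), Mdh1 by 1.11 (adjusted p = 0.00448), and the succinate dehydrogenase subunits Sdha and Sdhd by 0.67 and 0.83 (adjusted p = 0.00302 and 0.00659). Sdhd lost its call in 14 of 28 alternatives, Mdh1 in 9 and Sdha in 7, each of them without 7-day livers 2 and 3 among others, and Fh1 in 3, one of them without 7-day liver 2. Mdh2, Sdhb, Sdhc, Acat1 and Aacs were not called.

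Of 9 glucocorticoid-responsive genes 3 rose and 0 fell at 7 days, beside 18.0% and 5.77% of all tested genes. Dusp1, a phosphatase of MAP kinases, was at 32.6, 42.8, 16.0 and 14.4 eRPKM in controls and at 135, 102 and 138 at 7 days (log2 change 2.36, SE 0.40, adjusted p = 0.00058). Sgk1, a kinase, rose by 1.60 (adjusted p = 0.000377), and Fkbp5, a chaperone partner of the glucocorticoid receptor, by 1.51 (adjusted p = 0.00681), the latter in 18 of 28 alternatives. Fkbp5 was not called without control liver 1 or 4 or without any of the 7-day livers. Tdo2, which starts tryptophan breakdown, was not called (-1.02, adjusted p = 0.0219).

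Of 8 hepatocyte transcription factors 1 fell at 7 days, beside 5.77% of all tested genes. Nr3c1, the glucocorticoid receptor, was at 62.3 ± 5.0 eRPKM in controls (SD, n = 4) and 40.9 ± 1.94 at 7 days (SD, n = 3), a change of -0.60 (adjusted p = 0.00855) that was called in 14 of 28 alternatives and in none without a 7-day liver or without control liver 1, 2 or 3. Hnf4a had a change of -0.35 (adjusted p = 0.0662), which turned to 0.16 after quantile normalization, and Cebpa one of -0.75 (adjusted p = 0.0182). Cebpa fell between 3 and 7 days, from 193 ± 42.7 eRPKM (SD, n = 4) to 97.9 ± 22.2 (SD, n = 3), by 0.97 on the log2 scale (adjusted p = 0.00537). That call held in 19 of 28 alternatives and was lost without 3-day liver 1 or 4 or 7-day liver 1 or 3. It was also lost after quantile normalization (-0.57), among female livers, and with the replicate block, log2 Xist or log2 depth (-0.75) as a covariate. Foxa1, Foxa2, Foxa3, Cebpb and Onecut1 were not called in any of the 3 comparisons.

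**Figure D5:**
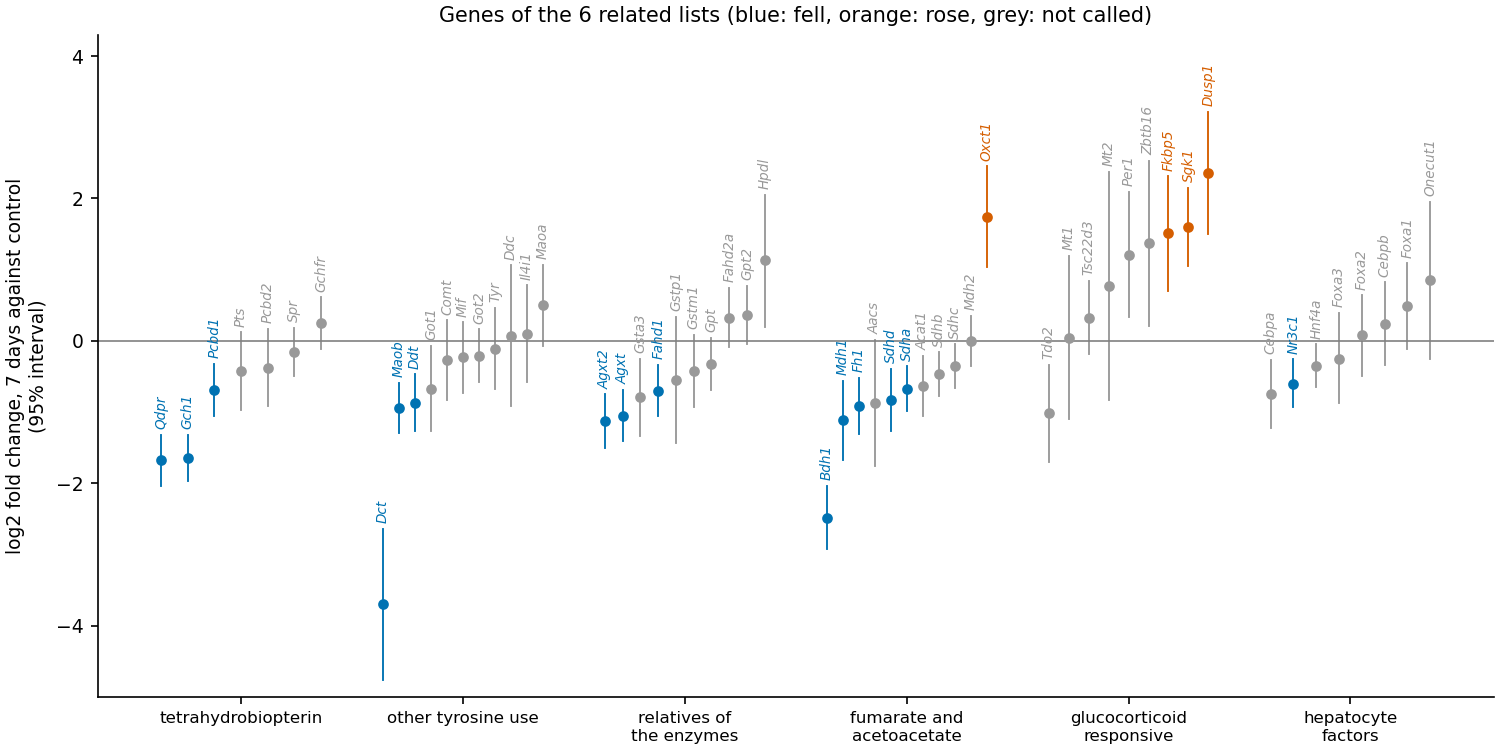
Log2 fold change at 7 days against control (vertical axis) with its 95% interval for the 56 tested genes of the 6 lists, ordered by size within each list; blue genes fell, orange rose and grey were not called. Of the 56, 15 are blue and 4 orange, and the largest falls are those of Dct, Bdh1, Qdpr and Gch1.

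The genes most like each enzyme over the 11 livers were found by Pearson's r of log2(eRPKM + 0.5) among tested genes with a mean of at least 10 eRPKM. They were Cpn2, Slc38a3 and Serpina3n for Tat (r of 0.959 to 0.97), Apoa2, Orm1 and Cyp2e1 for Hpd (0.988 to 0.995), Asl, Itih1 and Aqp9 for Hgd (0.974 to 0.983), Tdo2, Mup3 and Pgrmc1 for Gstz1 (0.994 to 0.995), and Got2, Dap and Pgm2 for Fah (0.935 to 0.964). All had means of 66.7 to 369 eRPKM, and the points share the depth and scaling of their library. Among the enzymes r was 0.85 to 0.95 for the pairs without Fah and 0.31 to 0.58 for those with it. After subtracting group means it was 0.71 to 0.93 and -0.05 to 0.30.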

How the data were processed

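RNA-seq of 11 whole livers was analysed, grouped by GEO title. Per the study's methods the authors masked poor bases and aligned pairs to mm9 with TopHat2 2.0.8, unstranded, and the submitters' notes also name featureCounts 1.4.5-p1. The deposited unit is eRPKM, an RPKM over exons, 1 column a liver, and 0 columns belonged to other samples. The authors' DESeq2 columns (mean signal, log2 fold change and adjusted p for 7 days against control) were not used. Reads were recovered from the eRPKM (177553 of 177553 values above 0 were whole within 0.002 reads, 100%; in a simulation 99.93% of 55739 values of 6000 genes were exact). Libraries held 1289038 to 6130510 reads.

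The test was limma 3.58.1 (R 4.3.3, eBayes with trend) on log2(eRPKM + 0.5), which understates changes of low genes. It took the 14244 genes that reached 0.5 eRPKM in 3 or more livers, all groups in 1 fit and no covariate. Calls needed an adjusted p (Benjamini-Hochberg, all genes) below 0.01 and a log2 change beyond 0.5. On simulated data of 13962 genes for 7 days against control it recovered 150 of 200 genes changed by 1.5, with 1 false call. The simulated reads were proportional to depth, with the same dispersion for every gene and no difference by sex. They had no limit on reads per kb, so the simulation does not give the rate of false calls in the livers. Livers were also compared by two-sided exact permutation tests. The plan named a count model for whole-number counts, and the table holds none. Named by rule were the 5 enzymes, the genes of 6 lists, Cyr61, Ctgf and the 3 genes most like each enzyme. A further 3 genes of the lists are not reported here. The members and lists were chosen with earlier results of these data known. Alternatives varied pseudocount, filter, scaling, groups in the fit, variance prior, covariates, threshold, unit and livers. The looser threshold (adjusted p under 0.05, any fold change) was applied to the main fit, so it can gain calls but not lose any.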

Additional observations from a re-analysis of the deposited data

Results flagged for a closer look

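Tat in control liver 4 (431 eRPKM) lay apart from the other controls, at 206 to 241. Its gap took 0.844 of the range of the group, above the limit of 0.829 for 4 samples. It was the only such case among 52 groups of 4 values, where chance gives about 1 in 20. Control liver 4 was also the shallowest library, with 1289038 reads.

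For 17 of 26 genes the change at 7 days differed from that at 3 days, by the test of 7 days against 3 days, which 19.3% of all tested genes passed. The 26 were the enzymes and the pathway genes called in some comparison, this one included, so that share was raised by how they were chosen. Among the enzymes this was Hgd, with a 7-day minus 3-day log2 difference of -0.77. For the cofactor genes Qdpr and Gch1 it was -1.54 and -1.70. For Ddt, Maob and Dct it was -0.74, -0.82 and -4.08, and for Agxt and Agxt2 -0.97 and -0.95. Among genes around fumarate and acetoacetate it was -0.88 for Fh1, -1.01 for Mdh1, -2.10 for Bdh1, -0.58 for Sdha, -0.69 for Sdhb and 1.51 for Oxct1. For Sgk1 and Dusp1 it was 1.35 and 1.66, and for Cebpa -0.97. Of these, Qdpr, Gch1, Dct and Bdh1 passed in 28 of 28 alternatives.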

How the results depend on the processing

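Hgd kept its call at 7 days against control in 28 of 28 alternatives. Tat lost it with no filter (-0.88), median-ratio size factors (-1.14), quantile normalization (-0.27), only the 2 groups compared (-0.88), no variance trend (-0.88), the replicate number as a block (-0.76), the MF suffix (-0.83), log2 Xist (-0.80) or log2 depth (-0.47) as a covariate, and among female livers (-0.59). Hpd lost it after quantile normalization (-0.47) and among female livers (-0.89), and Gstz1 gained it at the looser threshold of 0.05 without a fold limit (-0.73). Fah turned to 0.02 after quantile normalization. Between 3 and 7 days Hgd lost its call with no variance trend (-0.77), the replicate block (-0.71), log2 Xist (-0.69) or log2 depth (-0.56) as a covariate and among female livers (-0.72). In the same comparison Tat (-0.60), Hpd (-0.86) and Gstz1 (-0.67) gained one with only these 2 groups or the 2 deepest controls in the fit, Hpd (-0.86) also with limma-voom on recovered reads and at the looser threshold, and Gstz1 (-0.67) at the looser threshold, and Fah turned to 0.28 after quantile normalization. At 3 days, where none was called, Tat turned to 0.03 among female livers, Hpd to 0.19 with the 2 deepest controls, Gstz1 to 0.02 (quantile normalization), 0.08 (female livers, and depth as a covariate) and 0.29 (2 deepest controls), and Fah to 0.03 with the MF suffix. The causes were not tested.

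Without 1 liver at a time the log2 changes at 3 days were -0.40 to -0.05 for Tat, -0.39 to 0.01 for Hpd (0.01 without control liver 4), -0.51 to -0.29 for Hgd, -0.21 to 0.18 for Gstz1 (0.18 without control liver 4, 0.02 without 3-day liver 3) and -0.37 to -0.12 for Fah. At 7 days they were -1.0 to -0.64 for Tat, -1.25 to -0.85 for Hpd, -1.29 to -1.0 for Hgd, -0.88 to -0.49 for Gstz1 and -0.48 to -0.30 for Fah. From 3 to 7 days they were -0.64 to -0.55, -0.91 to -0.76, -0.89 to -0.60, -0.75 to -0.58 and -0.30 to -0.05 in that order. The ratio differences were 0.08 to 0.25 for Tat to Hpd, 0.00 to 0.21 for Hpd to Hgd, -0.57 to -0.32 for Hgd to Gstz1 and -0.40 to -0.09 for Gstz1 to Fah.

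Genes called at 3 days numbered 6, but 3 with no filter or the replicate block, 12 with size factors, 10 with the MF suffix, 16 with log2 Xist, 41 at the looser threshold, 1 with depth or limma-voom, 0 with only the 2 groups, no trend or the 2 deepest controls, and 0 to 54 without 1 liver (54 without 3-day liver 1). Against control at 7 days 3383 were called, but 2128 among female livers, 1676 with depth, 1985 with the 2 deepest controls, 5390 at the looser threshold and 2057 to 3684 without 1 liver (2239, 2222 and 2057 without 7-day livers 1, 2 and 3). From 3 to 7 days the 2753 calls became 1424, 1679 and 5085 for female livers, depth and the looser threshold, and 1412 to 3683 without 1 liver (1628, 1501 and 1412 without the 7-day livers). Of the pathway genes 19 were called at 7 days, but 12, 9 and 11 among female livers, with depth and with the 2 deepest controls, and 10 to 21 without 1 liver (10 without 7-day liver 2). Between 3 and 7 days the 16 became 9 with the replicate block, 6, 9 and 26 for female livers, depth and the looser threshold, and 7 to 20 without 1 liver (9, 8 and 7 without the 7-day livers). Between 3 and 7 days 27.5% of the calls were falls, against 43.8% with size factors and 49.9% after quantile normalization. Same-numbered livers of different groups correlated at -0.22 to 0.27 in their deviations from the group means. Livers with different numbers were not compared, so these values cannot decide whether the numbers pair the samples. The 7-day group was all female and deeper than 3 of 4 controls, and the 3-day group held 2 of the 3 MF livers. Sex, the suffix and time are therefore partly confounded, and so are depth and time in the comparisons with control. All 7-day libraries were deeper than all 3-day libraries, so between 3 and 7 days depth and time cannot be told apart.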
